A study of Rattus norvegicus with 18 samples.

Results

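The early transcriptional response of the dorsal hippocampus (dHC) was measured 1 h after inhibitory avoidance training in adult rats of the outbred Long-Evans stock. The 6 libraries compared, of 18 in the series, were chosen by their titles. They were 3 pools from rats trained in inhibitory avoidance and killed 1 h later, and 3 pools from naive rats that stayed untrained in the home cage. A further 3 dHC pools, from rats killed 6 d after training, entered the same fit, where they also bear on the spread, the filter on low counts and the level classes, and the 9 prelimbic cortex (PL) libraries serve below for a few comparisons. RNA from tissue punches of 5 rats was combined in each pool, so variation between single rats is not visible. The p-values rest on the spread between pools, for which edgeR took 13.0 of 19.0 degrees of freedom from the genes as a whole. The labels state that induction of c-Fos after training was tested by RT-PCR in the RNA of each animal before pooling. Naive rats had neither the handling nor the apparatus nor the foot shock of training, so these parts of the procedure cannot be told apart.

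In inhibitory avoidance a rat learns in a single session to avoid the compartment in which it received a shock, and the dorsal hippocampus is needed to form a lasting memory of it. Neuronal activity and stress hormones are known to start a fast and short-lived wave of transcription in the hippocampus. Its first members, the immediate early genes, need no new protein to be switched on and encode mainly transcription factors and proteins of the synapse, while genes induced by those factors follow later. At 1 h the first wave is usually still visible in mRNA. The deposited tables list genes by Ensembl ID, and the tables used here pair none of the IDs with a name, so genes are given by ID with no role, and neither the tissue nor the make-up of the punches was checked against marker genes.

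Reads assigned to genes numbered 8914752 to 9136114 per library at 1 h and 7687831 to 8874826 in naive pools. All 1 h pools were deeper than all naive pools. Genes detected per library numbered 18034 to 18207 at 1 h and 18068 to 18142 in naive pools. Reads outside gene models (the no-feature share) made up 10.9% to 11.6% of reads at 1 h and 10.1% to 12.4% in naive pools. The numbers in the titles run on within each group, so the order of processing, if the numbers give it, and the groups cannot be told apart. A total of 3 reads, taken as the limit of detection in a library, corresponded to 0.328 to 0.337 CPM at 1 h and 0.338 to 0.390 CPM in naive pools. Levels are in CPM, counts scaled to the library's gene counts with TMM factors, and are not corrected for transcript length.

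In the fit of the 9 dHC libraries, the hippocampal response at 1 h was small in number and almost wholly upward. Of 14305 genes tested, 32 were called (0.224%), meaning an edgeR adjusted p under 0.05: 31 were higher at 1 h (0.217% of those tested) and 1 was lower (0.00699%). The number called and the share that was higher moved with the model. With only the 6 libraries of the contrast in the fit, 98 genes were higher and 30 lower (76.6% higher). The share was 65.5% when genes of low counts were kept in, as described further on. In bulk tissue, a change in the number of cells of a type and a change in RNA per cell cannot be told apart. Rises were mostly modest: 4 of the 31 genes were more than 2-fold higher, 8 were between 1.5-fold and 2-fold higher, and 19 were at most 1.5-fold higher. The median rise was 1.43-fold and the smallest called rise 1.26-fold. For comparison, the median absolute log2 fold change of all tested genes was 0.095, and their median log2 fold change was −0.0023. For 70.4% of the tested genes the whole 95% interval of the log2 fold change fell between −0.5 and 0.5, and for 93.2% between −1 and 1.

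**Figure D1:**
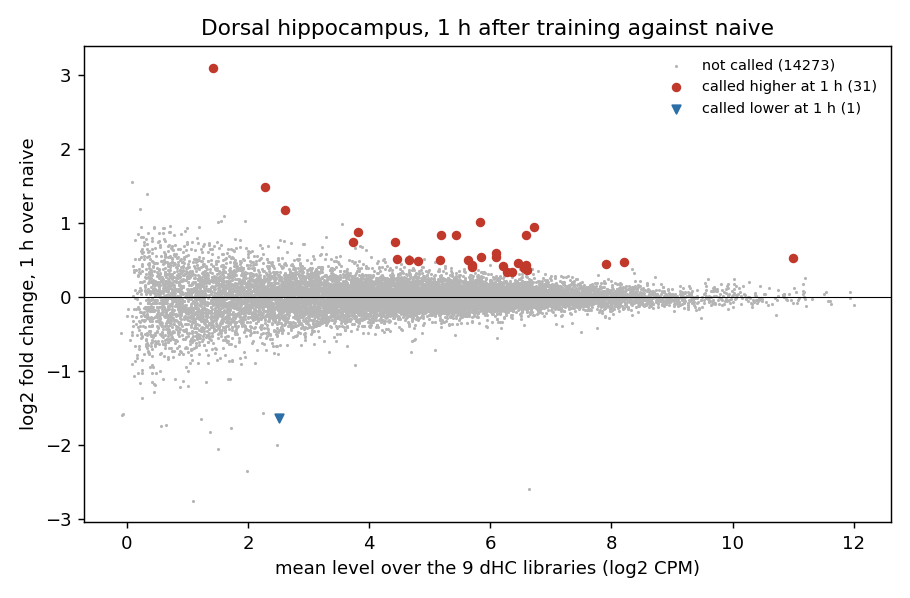
Log2 fold change at 1 h over naive dHC (vertical axis) against the mean level over the 9 dHC libraries in log2 CPM (horizontal axis), with 1 point per tested gene. The 31 genes called higher lie above most genes of their level, whose spread narrows as the level rises, and the 1 gene called lower is the blue triangle.

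The gene with the largest rise was ENSRNOG00000000640. It had 6.07, 5.12 and 6.38 CPM in the 3 pools at 1 h, against 0.558, 0.780 and 0.680 CPM in the 3 naive pools. These values rest on 46 to 58 counts at 1 h and on 5 to 6 counts in naive pools, not far above the limit of 3 counts. The groups were far apart, the lowest 1 h pool being 6.57-fold above the highest naive pool. The log2 fold change of ENSRNOG00000000640 was 3.11 (SE 0.29, 95% interval 2.49 to 3.72, edgeR adjusted p = 1.37e-05), an 8.61-fold rise. The log2 value stayed between 2.99 and 3.21 over 18 alternative analyses, which leave out DESeq2, where the gene had no adjusted p.

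The second largest rise was that of ENSRNOG00000008015. Its pools at 1 h had 7.53, 7.35 and 8.69 CPM, and the naive pools 3.12, 2.21 and 2.94 CPM, from 66 to 79 and from 17 to 28 counts. All 1 h pools were more than 2-fold above every naive pool. The log2 fold change of ENSRNOG00000008015 was 1.49 (SE 0.21, 95% interval 1.06 to 1.93, edgeR adjusted p = 0.00130). The other genes with more than a 2-fold rise had log2 fold changes of 1.18 and 1.02. The first of them averaged 8.46 CPM at 1 h and 3.74 CPM in naive pools, and the other, a more abundant transcript, 84.9 CPM at 1 h and 42.0 CPM in naive pools, with coefficients of variation of 13.5% and 12.7%.

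The single gene called lower was ENSRNOG00000019358. It had 3.82, 2.67 and 2.31 CPM at 1 h, against 9.04, 9.10 and 9.29 CPM in naive pools. The 1 h pools spread more than the naive pools, with an SD of 0.787 CPM against 0.129 CPM (n = 3 each). Its log2 fold change was −1.64 (SE 0.31, 95% interval −2.29 to −0.98, edgeR adjusted p = 0.0253). This fall was no longer called when any single 1 h or naive pool was left out, at edgeR adjusted p between 0.0702 and 0.255, nor with robust moderation of the spread (edgeR adjusted p = 0.129). Its SE also depended on the 6 d pools in the fit. Without 6 d pool 1 the SE was 0.203 (edgeR adjusted p = 0.000534). With only the groups compared in the fit it was 0.195 (edgeR adjusted p = 5.10e-05). Over 18 alternatives its adjusted p ran from 1.09e-11, when genes of low counts were kept in, to 0.255. The fit that gave the lowest value had infinite prior degrees of freedom, so it took no spread from single genes. DESeq2 gave this gene no adjusted p at 1 h.

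Next in line among lower values, by p, was ENSRNOG00000020935, which was not called. It had 9.32, 9.13 and 7.81 CPM at 1 h and 12.8, 14.7 and 14.0 CPM in naive pools, so that the groups did not overlap. The log2 fold change of ENSRNOG00000020935 was −0.66 (SE 0.14, edgeR adjusted p = 0.0582). It passed in 8 of 18 alternatives, with adjusted p from 0.00203 to 0.343.

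**Figure D2:**
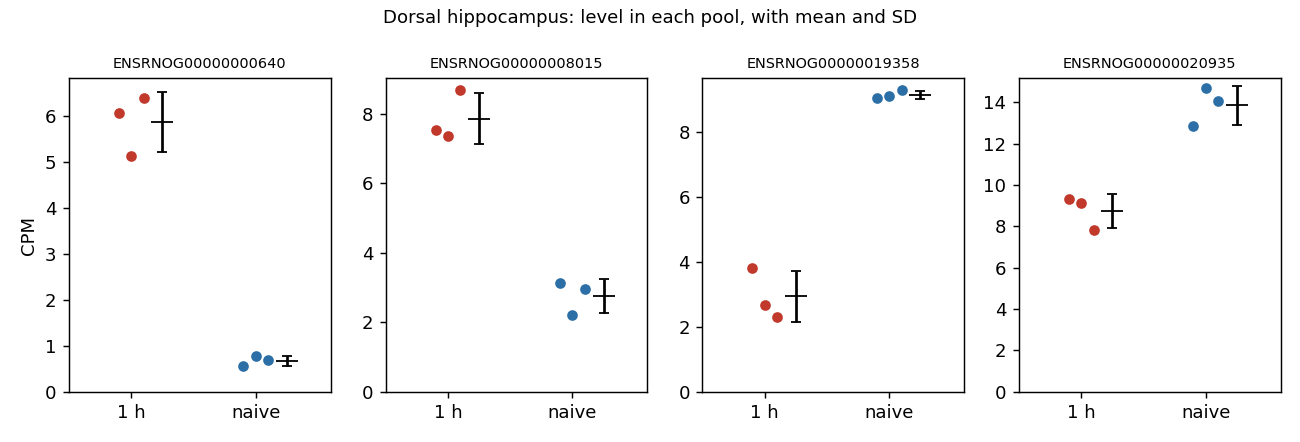
Level in CPM (vertical axis) of the 4 genes given by ID in each dHC pool at 1 h (red) and in each naive pool (blue), with the mean and SD of the 3 pools beside them. ENSRNOG00000000640 and ENSRNOG00000008015 are higher in every 1 h pool, and ENSRNOG00000019358 and ENSRNOG00000020935 lower, ENSRNOG00000020935 without passing the test.

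Among the 31 called rises, the largest were found at lower counts than the smallest, with overlapping ranges. The 4 genes with more than a 2-fold rise had means of 29.2 to 559 counts per library over the 6 pools, and the 19 genes with at most a 1.5-fold rise 196 to 18415 counts. The tested genes were split into 4 equal level classes by their mean log CPM over the 9 dHC libraries. Class 1, the lowest, from 0.933 to 7.35 CPM, held 3 called rises and the called fall. Class 2 held 4 called rises, class 3 held 10 and class 4, from 66.1 CPM upward, held 14. The called share was 0.112% in each of classes 1 and 2, 0.280% in class 3 and 0.391% in class 4.

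The precision of the measurement moved with the level. The median SE of the log2 fold change was 0.27 in class 1, 0.13 in class 2, 0.087 in class 3 and 0.065 in class 4. The smallest called change was 1.18 on the log2 scale in class 1, 0.52 in class 2, 0.41 in class 3 and 0.34 in class 4. In class 1, 9.31% of genes had the whole 95% interval between −0.5 and 0.5, against 98.9% in class 4. Rises of the median called size were thus not detectable at this depth for most genes of class 1. Classes 1 and 2 together held 25% of the called genes, and 3.45% with DESeq2, which left 6102 of the 14305 genes with no adjusted p.

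Genes more than 2-fold apart on average were mostly weakly counted and mostly not called. There were 11 such genes with the higher mean at 1 h, of which 4 were called, and 33 with the lower mean, of which 1 was called. All but 1 of the 33 and all but 1 of the 11 were in class 1. The genes among these that were not called had a median SE of 0.48 and a median mean of 10.7 counts per library. The 1 gene above class 1 with the lower mean, singled out after its values were seen, had 0.112, 12.6 and 53.6 CPM at 1 h, against 40.5, 342 and 26.2 CPM in naive pools and 95.4, 262 and 70.1 CPM in the 6 d pools. Its pools overlapped, since 1 h pool 3 exceeded naive pools 1 and 3, and the log2 fold change of −2.59 missed the threshold (SE 0.83, edgeR adjusted p = 0.245).

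The upward direction was clearest among the smallest p-values. At an unadjusted edgeR p under 0.05, 850 genes were higher at 1 h (5.94% of those tested) and 642 lower (4.49%). At an unadjusted p under 0.01 the counts were 314 and 156, and under 0.001 they were 97 and 10. Of the 100 genes with the smallest p, 91 were higher, and of the first 500, 330. Just outside the threshold, at an adjusted p from 0.05 to 0.1, lay 51 genes that were higher and 7 that were lower. The excess of higher values at p under 0.05 was also larger at higher levels, with 103 higher and 118 lower in class 1, 172 and 155 in class 2, 287 and 202 in class 3, and 288 and 167 in class 4. At this threshold the balance rested partly on naive pool 3, without which 850 genes were higher and 836 lower, and on the scaling, since upper-quartile factors gave 804 and 725. It also moved with the 6 d pools in the fit, since the 1 h and naive libraries alone gave 981 and 904.

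For all 32 called genes the 3 pools at 1 h lay on one side of the 3 naive pools. The genes were called from these same pools, and a call needs a spread within groups that is small beside the difference, so the pool values of called genes are a description and no separate support. The lowest 1 h pool exceeded the highest naive pool by a median of 1.29-fold among the 31 rises, with a range of 1.11-fold to 6.57-fold. Such separation was also common outside the calls: over all tested genes the pools at 1 h were all above the naive pools for 1331 genes (9.3%) and all below for 1158 (8.1%). The separated genes that were not called numbered 1300 higher and 1157 lower, with a median absolute log2 fold change of 0.20.

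Set against the mean of the naive pools, the 31 genes had a median log2 difference of 0.53 in 1 h pool 1, 0.49 in pool 2 and 0.55 in pool 3, and every gene was above 0 in every pool, which the separation of the pools already fixes. Over all tested genes the same medians were 0.0013, 0.0015 and 0.00088. Pool 2 was the lowest of the 1 h pools for 21 of the 31 genes, and pool 3 the highest for 17. Among naive pools, pool 1 was the lowest for 20 of the genes and pool 3 the highest for 16. The median coefficient of variation of the 31 genes was 6.55% among 1 h pools and 8.21% among naive pools, against 7.14% and 7.89% for all tested genes. The median level of the called genes was 54.4 CPM, against 24.7 CPM for all tested genes, so genes of like level are not compared here.

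**Figure D3:**
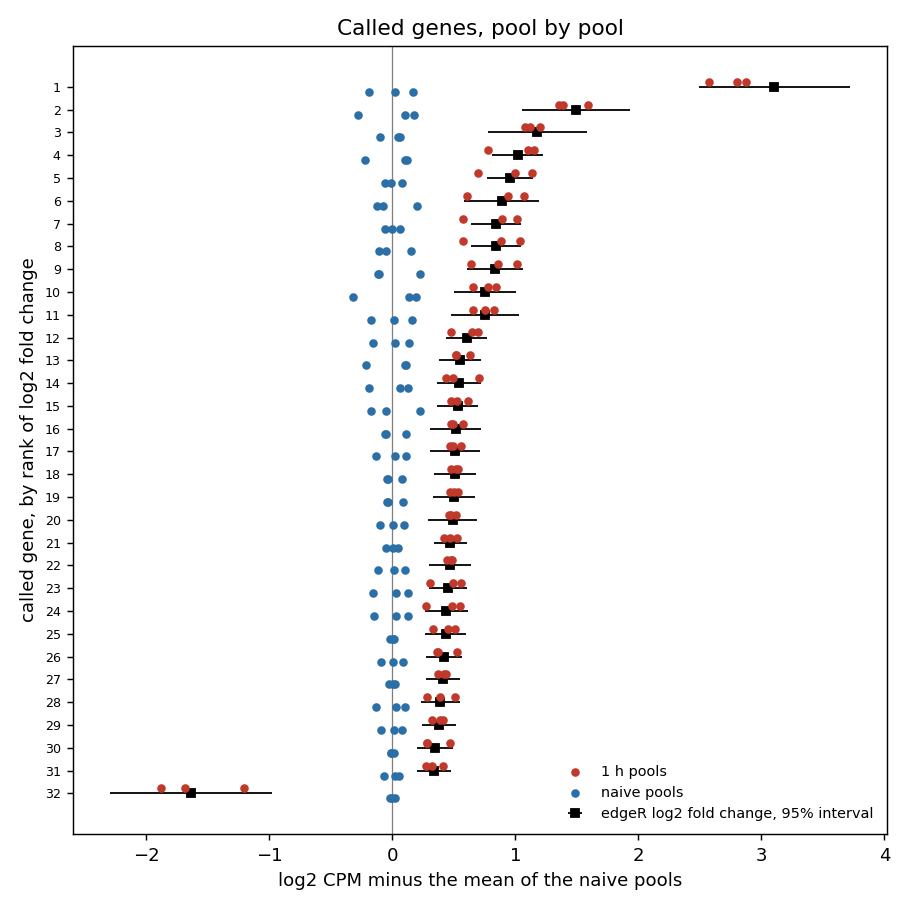
The 32 called genes ordered by log2 fold change (vertical axis), with each 1 h pool (red) and each naive pool (blue) as log2 CPM minus the mean of the naive pools (horizontal axis), and the edgeR log2 fold change with its 95% interval in black. Red and blue points do not overlap for any gene, and ranks 13 to 31 lie at rises of at most 1.5-fold.

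Across the whole set of tested genes, in contrast, the groups stood only slightly apart. The root mean square log2 difference between 2 pools was 0.280 to 0.284 for pairs of 1 h pools, 0.285 to 0.304 for pairs of naive pools and 0.281 to 0.342 for the 9 pairs of a 1 h pool with a naive pool. Among genes above the median level these ranges were 0.141 to 0.143, 0.142 to 0.153 and 0.138 to 0.206. The pairs between the groups thus reached higher, but overlapped those within a group. Naive pool 3 was nearly as close to the 1 h pools, at 0.281 to 0.288, as these were to each other, while naive pool 2 was at 0.324 to 0.342 and naive pool 1 at 0.293 to 0.320.

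**Figure D4:**
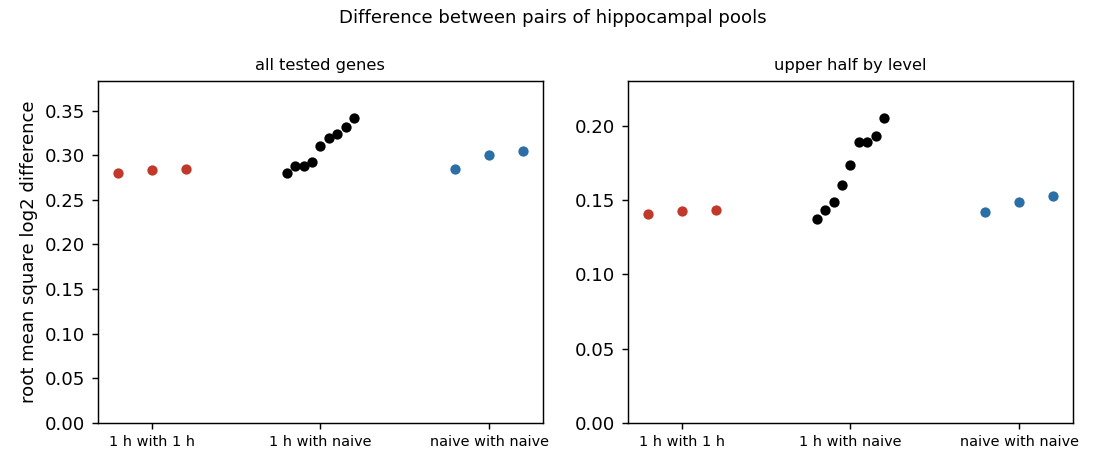
Root mean square log2 difference in CPM between pairs of dHC pools (vertical axis), over all tested genes at left and over genes above the median level at right, with 1 point per pair. Pairs of a 1 h with a naive pool run from 0.281 to 0.342 over all genes, overlapping pairs within a group.

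The first principal component of the 9 dHC libraries held 23.1% of the variance. It placed the naive pools between −14.2 and 5.33, the 1 h pools between 9.60 and 16.8 and the 6 d pools between −21.3 and −0.69. The 1 h pools were thus apart from all other dHC pools. The 32 called genes were 0.224% of those tested, and leaving them out could hardly move this component. Without them the 1 h pools were at 9.15 to 16.4, against −14.2 to 5.86 in naive pools and −21.6 to −0.079 in 6 d pools. The 1 h pools were also the deepest of the 9 libraries, and the part of depth in this separation was not tested.

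The number of calls moved with single pools and with the model. All 32 genes had the same direction in each of 19 alternatives, which their non-overlapping pools largely fix and which is no sign of stability. Of the 32, 12 stayed called when any of the 9 dHC libraries was left out, all of them higher at 1 h, and 11 stayed called in every alternative that gave them an adjusted p, with rises from 1.39-fold upward. The number called fell to 14 without 1 h pool 1, to 17 without 1 h pool 3 and to 15 without naive pool 1. It was 50 without 6 d pool 2 and 66 without 6 d pool 3. These pools are in neither group of the contrast, but leaving one out changes the estimate of the spread and the genes that pass the filter, with 14471 and 14499 tested. Pairs of 6 d pools differed by a root mean square of 0.321 to 0.335 on the log2 scale, more than any pair within the 1 h or the naive group. With only the groups compared in the fit, 98 genes were higher and 30 lower, so that 76.6% were higher, against 96.9% in the fit of 9 libraries. Without a filter on low counts 180 were higher and 95 lower, or 65.5%, and adding the no-feature share to the model 68 and 17, or 80.0%. In these 3 fits all 32 genes remained called. The fit without the filter had infinite prior degrees of freedom, so it took no spread from single genes. DESeq2 called 56 genes higher and 2 lower, with 26 of the 32 called and no adjusted p for the other 6. Among these 6 were ENSRNOG00000000640 and ENSRNOG00000008015, the largest rises, and ENSRNOG00000019358, the called fall.

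**Figure D5:**
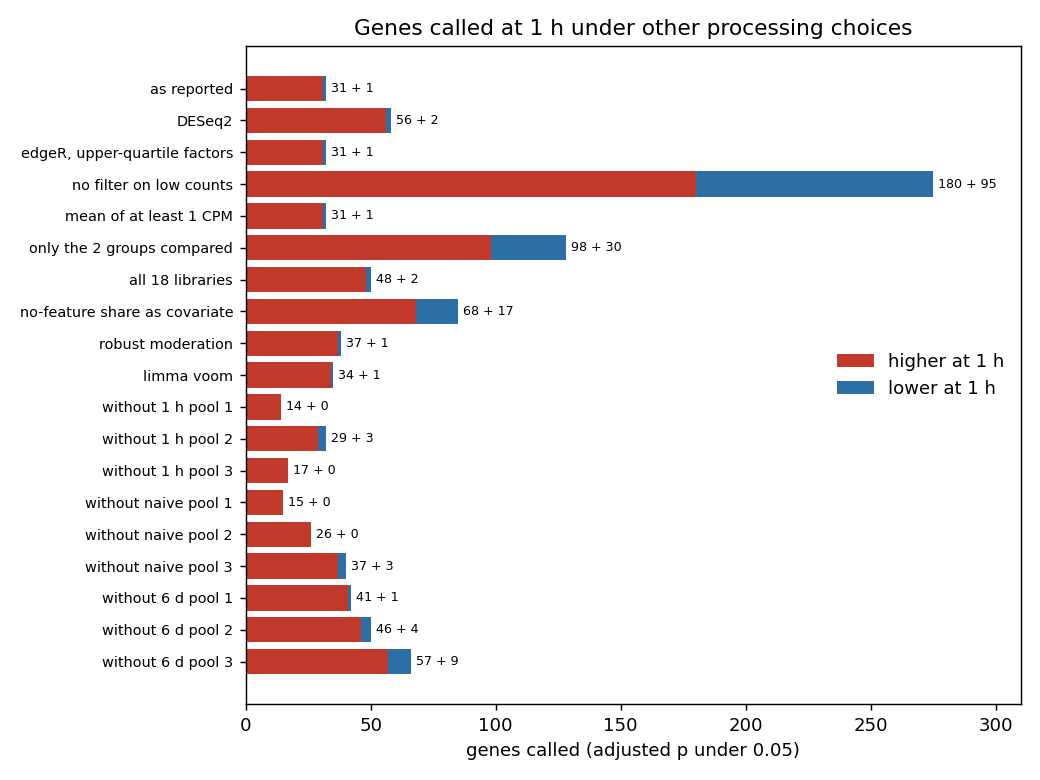
Number of genes called at 1 h against naive (horizontal axis) under the analysis as reported and under other processing choices (vertical axis), with genes higher at 1 h in red and lower in blue. The count runs from 14, with 1 h pool 1 left out, to 275, with genes of low counts kept in, and higher genes outnumber lower ones in each bar. The replicate block, with 110 genes higher and 40 lower, is not shown.

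The 4 genes given by ID were followed to 6 d and into PL. ENSRNOG00000000640 averaged 0.673 CPM in naive dHC, 5.86 CPM at 1 h and 0.564 CPM at 6 d (SD 0.111, 0.654 and 0.186, n = 3 each), and the change from 1 h to 6 d was −3.34 on the log2 scale (SE 0.30, edgeR adjusted p = 8.33e-06). ENSRNOG00000008015 averaged 2.76 CPM in naive dHC, 7.86 CPM at 1 h and 3.08 CPM at 6 d, a log2 change from 1 h to 6 d of −1.35 (SE 0.21, edgeR adjusted p = 0.00282). Against naive pools their log2 changes at 6 d were −0.24 (SE 0.47, edgeR adjusted p = 0.980) and 0.14 (SE 0.25, edgeR adjusted p = 0.972). Of the 31 genes called higher at 1 h, 21 differed between 6 d and 1 h, where 1.1% of all tested genes were called, and all 21 were lower at 6 d. The 31 genes had a median log2 change of 0.093 at 6 d against naive pools, in a range of −0.32 to 0.51. The comparisons of 6 d share the 1 h or the naive libraries with the one that chose the genes, so these values are given side by side only.

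The genes with lower values differed from each other in their levels at 6 d. ENSRNOG00000020935 had 14.0, 16.4 and 12.5 CPM at 6 d, higher than at 1 h by 0.71 on the log2 scale (SE 0.14, edgeR adjusted p = 0.0160). Leaving out 1 h pool 1, 1 h pool 3 or 6 d pool 2 ended the call, at edgeR adjusted p of 0.0638, 0.129 and 0.0858, in a range of 0.000189 to 0.129 over 18 alternatives. ENSRNOG00000019358 had 8.20, 2.18 and 3.25 CPM at 6 d, so that 1 pool was near the naive level and the others near the 1 h level. It was not called against either group (edgeR adjusted p = 0.832 against naive and 0.457 against 1 h). The result against naive pools rested on 6 d pool 1, without which the log2 change was −1.76 and called (edgeR adjusted p = 0.0136), against −1.02 with it. It was also called, at −1.02, when genes of low counts were kept in (edgeR adjusted p = 0.000499), a fit with infinite prior degrees of freedom. Against 1 h the log2 change was 0.62 with all pools and −0.13 without 6 d pool 1.

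In PL, ENSRNOG00000008015 had 57.2, 51.8 and 62.0 CPM at 1 h, against 7.63, 4.10 and 8.89 CPM in naive pools. Its rise was smaller in dHC, with a difference in log2 fold change, dHC minus PL, of −1.56 (SE 0.31, 95% interval −2.20 to −0.92, edgeR adjusted p = 0.0327, a test that called 14 of 14784 genes, or 0.0947%). It was no longer called without dHC 1 h pool 1 or 2, dHC naive pool 1 or 3, PL 1 h pool 1 or 3, or PL naive pool 1 or 2, at adjusted p between 0.0573 and 0.321 (range over 14 alternatives 0.000687 to 0.321). The same test gave ENSRNOG00000000640 a difference of −0.62, not past the threshold (95% interval −1.64 to 0.40, edgeR adjusted p = 0.810). ENSRNOG00000019358 averaged 2.79 ± 0.744 CPM in PL at 1 h and 2.05 ± 0.145 CPM in naive PL (SD, n = 3 each). The difference of its changes was −2.07 (SE 0.49), not called by edgeR (adjusted p = 0.136) but called by DESeq2 (adjusted p = 0.0313), in a range of 0.0313 to 0.442 over 14 alternatives. Of the 32 called genes, 6 differed between the regions, 3 with the higher change in dHC and 3 with the larger rise in PL. In PL the 3 genes with the higher change in dHC had log2 changes of −0.33, −0.12 and −0.059, none of them called. That test shares the dHC libraries with the comparison that chose the genes, so the count is given as a description.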

How the data were processed

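The authors deposited raw counts, whole numbers of reads for each of 32662 Ensembl gene IDs in every library. The 5 entries for reads not assigned to a gene were left out of all sums and tests. Per the submitters' processing notes the assembly was Rnor_6.0, and Picard 1.126, bedtools 2.17.0 and DESeq2 were used, with no role for each. Per the labels' protocols, polyadenylated RNA was sequenced from 200 ng of RNA with a stranded kit, 12 PCR cycles and paired reads of 150 nt. Aligner, counter, annotation release and strand setting: not given in the sources used here, so overlapping, antisense and near-identical genes are uncertain. Reads not aligned made up 46.8% to 50.1% of reads at 1 h and 44.3% to 51.8% in naive dHC pools.

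Counts were tested in R 4.3.3 with edgeR 4.0.16 (quasi-likelihood F test, two-sided) on the 9 dHC libraries, with TMM factors, the filterByExpr filter and Benjamini-Hochberg adjustment over all genes tested. The difference between regions was tested on all 18 libraries. Intervals are at 95%, and SEs were derived from the F statistic. Log2 CPM used a prior count of 2. Alternatives were DESeq2 1.42.0, limma voom (limma 3.58.1), other scalings, filters, libraries and covariates, and each library left out. Robust moderation was added after the data were seen, as were the alternatives for the 6 d comparisons. No pair of replicates agreed within sampling noise: the chi-square over genes, divided by its degrees of freedom, was 1.76 to 2.59 among 1 h pools and 2.73 to 2.88 among naive pools. Among the 6 d pools, which enter the same fit, it was higher, at 3.55 to 4.38. An edgeR test of the same form, for 1 h against naive, was tried on simulated counts whose spread followed the trend with level alone. The other models and the difference between regions were not tried in this way.

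The IDs named are at most 2 that rose and 2 that fell, called genes first by absolute log2 fold change, then, for a fall, the smallest p. The reference table used here (GRCr8) matched 0 of the IDs. The 27 gene lists were therefore not tested, and no sequence is shown. Genes, lists and tests were chosen with earlier results of these data known. The detection limit covers counting error only, since PCR copies were not told apart.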

Additional observations from a re-analysis of the deposited data

Results flagged for a closer look

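The 1 h change of ENSRNOG00000008015 differed between the regions, with a difference, dHC minus PL, of −1.56 in log2 fold change (SE 0.31, edgeR adjusted p = 0.0327). It rose by 1.49 in dHC and by 3.06 in PL on the log2 scale, in 3 of 3 pools of each region, and the call was lost without any one of 8 of the 12 naive and 1 h libraries.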

How the results depend on the processing

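The 31 higher and 1 lower called genes (0.224% of those tested) became 56 and 2 with DESeq2 (0.405%), 180 and 95 when genes of low counts stayed in (1.27%), 98 and 30 when the fit held the 6 libraries of the contrast alone (0.907%), 48 and 2 with all 18 libraries (0.338%) and 68 and 17 with the no-feature share as a term (0.594%). The DESeq2 share is of all 14305 genes, of which 6102 had no adjusted p and could not be called. Upper-quartile factors or a minimum mean of 1 CPM gave 31 and 1, limma voom 34 and 1, and robust moderation 37 and 1. With one library left out, the called share ran from 0.0967% to 0.455%, with 14 to 57 genes higher and 0 to 9 lower. The prior degrees of freedom edgeR gave to the spread were 13.0 as reported, 18.1 for the 6 libraries, 15.7 with the no-feature term and 17.0 with robust moderation. They were infinite when genes of low counts stayed in, so that fit pooled the spread over genes and took none from single genes. The cause of the differing counts was not tested. The share of called genes in level classes 1 and 2, 25% as reported, was 3.45% with DESeq2, which gave low-count genes no adjusted p, and 10.9% when genes of low counts stayed in, where the median level was taken over 21581 genes. With one library left out it ran from 20.0% to 29.4%. Genes whose pools did not overlap, 2489 as reported, numbered 3662 to 4646 with a 1 h or naive pool left out (1857 to 2279 higher, 1805 to 2367 lower), since fewer pools separate more easily, and 2477 to 2924 under other scalings and filters.

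A replicate block gave 110 genes higher and 40 lower (1.05% of those tested), with prior degrees of freedom of 18.8. Same-numbered 1 h and naive pools did not deviate together, with correlations over genes of 0.028, −0.0025 and 0.024. No 1 h pool correlated best with its own number. All correlations between 1 h and naive pools lay between −0.085 and 0.058, too near 0 for their order to decide about pairs. The reported fit held no block, so it took no pairing into account. Each naive pool was, however, closest to the 6 d pool of its own number. Those root mean square log2 differences were 0.303, 0.288 and 0.287, against 0.304 to 0.334 for 6 d pools of other numbers. What the numbers stand for was not tested. With the block, ENSRNOG00000019358 also passed for the difference between regions (−2.08, edgeR adjusted p = 0.0495). Among the genes given by ID, values with no call changed sign when a library was left out. ENSRNOG00000008015 ran from −0.054 to 0.27 and ENSRNOG00000020935 from −0.063 to 0.14 for 6 d against naive (−0.0025 without naive pool 1), and ENSRNOG00000019358 from −0.13 to 0.96 for 6 d against 1 h. The alternatives for gene lists were not run, since no ID had a name.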
